A study of Mus musculus with 4 samples.

Results

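The R-loop resolution genes are 9 named mouse genes whose products remove RNA paired with DNA or keep it from forming: Rnaseh1, Rnaseh2a, Rnaseh2b, Rnaseh2c, Dhx9, Aqr, Top1, Thoc1 and Thoc2. They were chosen by name for this role, with earlier results of these data known. All 9 were found among 21670 protein-coding genes of GENCODE M21 on chromosomes 1 to 19 and X. The data are ChIP-seq peak lists from neural stem cells of wild-type C57BL/6J embryos at E12.5, cultured with EGF at 20 ng/ml and FGF at 10 ng/ml. There were 4 samples, 1 per group: a ChIP of the histone demethylase PHF2 (antibody D45A2), its input, a ChIP of H3K9me2 (antibody ab1220), and its input. Only the list of PHF2 peaks and the list of H3K9me2 regions were analysed here. With 1 sample per target there is no spread between cultures, no test was run, and all values describe these lists.

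An R-loop arises when a nascent RNA pairs with the template DNA strand and leaves the other DNA strand unpaired. RNase H enzymes cut the RNA of such hybrids, helicases unwind it, topoisomerase I relaxes the negative supercoils behind RNA polymerase that favour it, and the THO complex packages nascent RNA so that it stays away from the DNA. Unresolved R-loops are a known source of replication stress in dividing cells such as neural progenitors. PHF2 reads H3K4me3, which marks active promoters, through its PHD finger, and is described as removing H3K9me2, which marks silent chromatin.

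The lists held 5992 PHF2 peaks and 36111 H3K9me2 regions on the chromosomes analysed. Peak lists carry no read totals, so the sequencing depth is unknown and a gene without a listed peak is not shown to lack PHF2. The authors' PHF2 score, 1 value per peak on an unstated scale, ran from 100.02 to 3226.1 with a median of 229.1, and it serves here to rank peaks within this list only. Of 10 neural stem cell markers, 7 (Nes, Sox2, Pax6, Vim, Hes1, Fabp7 and Sox9) had a PHF2 peak at a start, while Hes5, Prom1 and Msi1 had none. The share over all protein-coding genes was 29.1%. Of 20 markers of neurons, oligodendrocytes, microglia, endothelium and mesenchyme, 2 had one, Map2 and Syt1, both among the 6 neuronal markers. A peak is not a level of expression, and the markers were chosen with earlier results of these data known. These counts therefore neither check the cell label nor measure the makeup of the cultures.

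PHF2 peaks lay at 6 of the 9 genes, Top1, Dhx9, Rnaseh2a, Rnaseh2b, Aqr and Thoc1, within 1 kb of a start of a coding transcript. Rnaseh1, Rnaseh2c and Thoc2 had no PHF2 peak there. The share of all protein-coding genes with a PHF2 peak was 29.1% (6306 of 21670), against which the 66.7% of the 9 genes stands as a description of a short list. No gene of the 9 had an H3K9me2 region within 1 kb of a start, where 2.30% of all protein-coding genes had one. Each class of activity held at least 1 gene with a peak, namely RNase H, helicases, topoisomerase and THO. The classes are small, however, and topoisomerase is Top1 alone.

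The sequences at 5 starts show promoters of like CpG number with and without a PHF2 peak, and were picked for that contrast. RefSeq promoters (build GRCm38.p6, the assembly also called mm10) of 300 bases, 250 before and 50 from the start on, were matched in the promoter table used here for 6 of the 9 genes, all but Rnaseh1, Rnaseh2b and Thoc1. Dhx9 (with a peak) and Thoc2 (without) have more CpG dinucleotides, Aqr (with a peak) and Rnaseh2c (without) have fewer, and these pairs are followed by the curated start of Rnaseh2a, which lies outside the peak assigned to that gene. Each is printed 5′ to 3′ along transcription, with CpG dinucleotides in capitals.
Dhx9, chr1:153487611-153487910, minus strand: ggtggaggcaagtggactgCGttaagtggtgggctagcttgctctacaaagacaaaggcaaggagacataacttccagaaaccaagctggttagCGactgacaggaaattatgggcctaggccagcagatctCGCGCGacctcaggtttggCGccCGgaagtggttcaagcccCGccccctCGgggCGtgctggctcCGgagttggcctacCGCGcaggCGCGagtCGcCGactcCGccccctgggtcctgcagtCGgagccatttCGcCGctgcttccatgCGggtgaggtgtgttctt
Thoc2, chrX:41911852-41912151, minus strand: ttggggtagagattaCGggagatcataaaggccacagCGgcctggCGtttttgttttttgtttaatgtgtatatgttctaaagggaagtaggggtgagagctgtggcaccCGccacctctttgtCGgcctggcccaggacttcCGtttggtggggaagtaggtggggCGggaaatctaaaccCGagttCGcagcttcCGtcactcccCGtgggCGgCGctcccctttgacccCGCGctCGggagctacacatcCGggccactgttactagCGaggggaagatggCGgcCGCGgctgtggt
Aqr, chr2:114175290-114175589, minus strand: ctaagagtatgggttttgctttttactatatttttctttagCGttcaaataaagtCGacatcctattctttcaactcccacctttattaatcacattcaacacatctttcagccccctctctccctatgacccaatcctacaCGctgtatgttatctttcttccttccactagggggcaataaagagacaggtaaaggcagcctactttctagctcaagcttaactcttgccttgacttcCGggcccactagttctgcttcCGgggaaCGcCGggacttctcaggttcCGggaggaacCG
Rnaseh2c, chr19:5601623-5601922, plus strand: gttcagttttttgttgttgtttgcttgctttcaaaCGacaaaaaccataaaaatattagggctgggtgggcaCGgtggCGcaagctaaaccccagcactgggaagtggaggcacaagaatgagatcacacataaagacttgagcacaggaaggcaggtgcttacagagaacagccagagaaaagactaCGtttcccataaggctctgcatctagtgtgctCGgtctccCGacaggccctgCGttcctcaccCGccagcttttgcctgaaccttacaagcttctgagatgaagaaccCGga
Rnaseh2a, chr8:84966027-84966326, minus strand: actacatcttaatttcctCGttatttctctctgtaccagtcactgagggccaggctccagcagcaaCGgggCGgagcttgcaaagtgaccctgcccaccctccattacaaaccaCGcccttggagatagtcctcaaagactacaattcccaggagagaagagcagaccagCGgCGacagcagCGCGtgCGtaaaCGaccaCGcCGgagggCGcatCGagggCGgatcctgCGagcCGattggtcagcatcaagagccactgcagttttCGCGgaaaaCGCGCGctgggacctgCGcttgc

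The 300 bases held 22 CpG dinucleotides at Dhx9 and 21 at Thoc2. All 300 bases of the Dhx9 promoter lay under a PHF2 peak and none of the Thoc2 promoter did. Aqr and Rnaseh2c had 9 CpG dinucleotides each, fewer than the median of 13 over 21045 RefSeq promoters of coding genes, and again the first lay wholly under a peak and the second did not. The curated start of Rnaseh2a had 23 and no peak. Top1, not printed, had the most of the 6, 29, and lay wholly under its peak.

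Among the RNase H genes, the RNase H2 trimer was covered in part. Rnaseh1 encodes the monomeric enzyme that degrades RNA in longer hybrids in the nucleus and in mitochondria. It has a single coding start (chromosome 12, 28649602), and the nearest PHF2 peak lay 13.3 kb away, at the ribosomal protein gene Rps7 (score 252.77). Rnaseh2a encodes the catalytic subunit of RNase H2, which also removes single ribonucleotides from DNA. Its PHF2 peak had a score of 260.59 and a length of 1580 bp (chromosome 8, 84968937 to 84970516). That peak ranked 2521st of 5992 by score and 1766th by length.

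The Rnaseh2a peak sits on a start region shared with other genes, away from the start that RefSeq curates. Prdx2, which encodes a peroxide-reducing enzyme and is read in the opposite direction, and Gm49661 also start inside it. Sharing a peak with another coding gene was found for 24.7% of all coding genes with a peak, and among the 9 genes only for Rnaseh2a. Of the 7 coding transcripts of Rnaseh2a, 3 start in the peak, with GENCODE support levels of 5, 5 and 3 on a scale from 1 (best) to 5, and the 2 of level 5 are marked as principal. The other 4 start in a second window downstream, with levels of 1, 1, 2 and 3, the first of them also principal, and lay 2061 to 2926 bp from the peak. RefSeq places the curated start at 84966076, at a distance of 2861 bp. When curated RefSeq starts replaced the GENCODE ones, a choice made after seeing the data, Rnaseh2a had no PHF2 peak and 5 of the 9 genes did.

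Rnaseh2b encodes the subunit that links RNase H2 to the replication clamp PCNA, and its PHF2 peak lay at the inner of its 2 starts. The peak had a score of 240.7 and a length of 1185 bp (chromosome 14, 62331764 to 62332948), rank 2810 by score and 3802 by length. It covered the start of the principal transcript at 62332068, whose support level is 1. The outer start, 62292589, belongs to a transcript of support level 3 and lay 39175 bp from the peak. With the most 5′ start alone, Rnaseh2b had no peak. Rnaseh2c encodes the third subunit, and its 4 coding starts, which share 1 window, had none. The nearest PHF2 peak to Rnaseh2c, 35.2 kb from its most 5′ start, was a weak one at Rela (142.39), which encodes a subunit of NF-kB.

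Both helicase genes had a PHF2 peak of their own, shared with no other gene start. Dhx9 encodes a DEAH-box helicase that unwinds RNA and RNA:DNA duplexes. Its peak had the second highest score of the 9 genes, 386.63, with a length of 1645 bp (chromosome 1, 153486398 to 153488042). It ranked 1422nd by score, in the upper 23.7% of all peaks, and covered all 3 coding starts. Aqr encodes aquarius, a helicase of the spliceosome that binds introns and whose loss is known to raise R-loops in human cells. The Aqr peak was lower, 182.67, with a length of 1189 bp (chromosome 2, 114174516 to 114175704), rank 3863 by score, and covered both coding starts.

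Top1 had the highest score and the longest peak of the 9 genes. It encodes topoisomerase I, which nicks one DNA strand to release supercoils. The peak had a score of 458.76 and a length of 2004 bp (chromosome 2, 160645558 to 160647561). It ranked 1045th by score and 774th by length, in the upper 17.4% and 12.9% of all peaks. The peak reached 330 bp upstream and 1673 bp downstream of the only coding start, so 83.5% of it lay on the transcribed side.

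The 2 THO genes differed in whether a peak was listed. Thoc1 encodes a core subunit of the complex and had the lowest score and the shortest peak of the 6, 136.58 and 930 bp (chromosome 18, 9957761 to 9958690), rank 4971 by score and 5509 by length. It covered the start of the principal transcript. Thoc2 encodes the largest subunit, on chromosome X, and none of its 4 start windows had a PHF2 peak. The nearest one lay 5036725 bp from the RefSeq start, shared by Ube2a and C330007P06Rik (score 243.78). Few genes on X had a peak, 7.07% (67 of 948), against 30.1% on chromosomes 1 to 19. At the CpG content of the RefSeq start of Thoc2, 23.1% of X windows had one (15 of 65), against 57.2% of all windows.

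**Figure D1:**
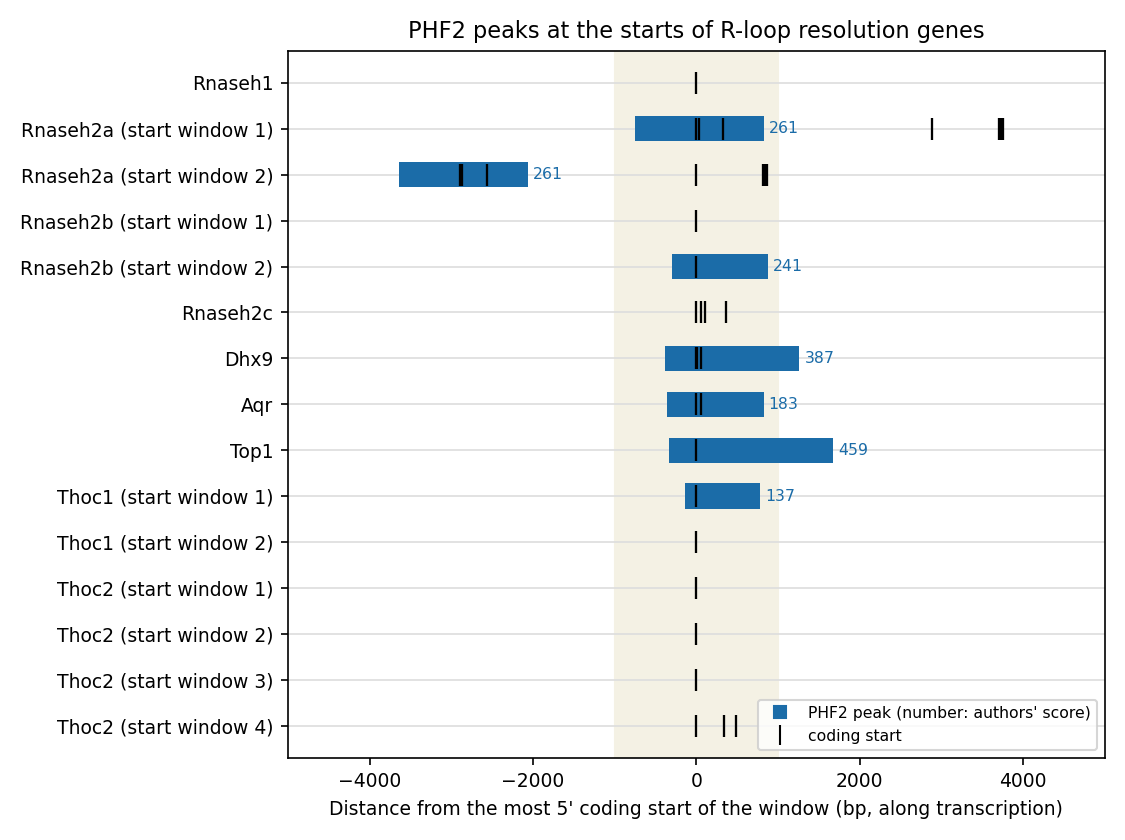
PHF2 peaks (blue bars, with the authors' score, rounded) around the 15 start windows of the 9 genes, in bp from the most 5′ coding start of each window along transcription. Black ticks are coding starts and the shaded band marks 1000 bp on either side of that start. Of the 15 windows, 6 hold a peak, the Rnaseh2a peak appears upstream of its second window, and no H3K9me2 region falls within the 5 kb shown on either side.

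All 6 peaks covered a start and extended further downstream than upstream, though the Rnaseh2a peak was nearly symmetric. The peak centre lay 671.5 bp downstream of the nearest coding start at Top1, 388 bp at Dhx9, 319.5 bp at Thoc1, 288 bp at Rnaseh2b, 167 bp at Aqr and 13.5 bp at Rnaseh2a. The median of these was 303.8 bp, beside 144 bp over all peaks at coding windows, of which 71.7% were centred downstream and 94.3% covered the start. The upstream edge lay between 145 bp (Thoc1) and 776 bp (Rnaseh2a) before the start, and the downstream edge between 761 bp (Aqr) and 1673 bp (Top1) after it.

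The 6 scores spanned 3.36-fold and lay around the middle of the list. Their median was 250.6, beside 231.7 over all genes with a peak. From high to low the order was Top1, Dhx9, Rnaseh2a, Rnaseh2b, Aqr and Thoc1, and without replicates it is unknown which neighbours in it differ. Top1, Dhx9, Rnaseh2a and Rnaseh2b lay above the median score of all peaks, while Aqr and Thoc1 lay below it. By length, 3 of the 6 were above the median of 1306 bp, since the Rnaseh2b peak was high for its length. Over all peaks, score and length had a Spearman rho of 0.84 (n = 5992 peaks of 1 library), so both ranks describe much the same property. No gene of the 9 reached the highest-scoring 10% of peaks, which only 2.84% of all protein-coding genes reached.

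**Figure D2:**
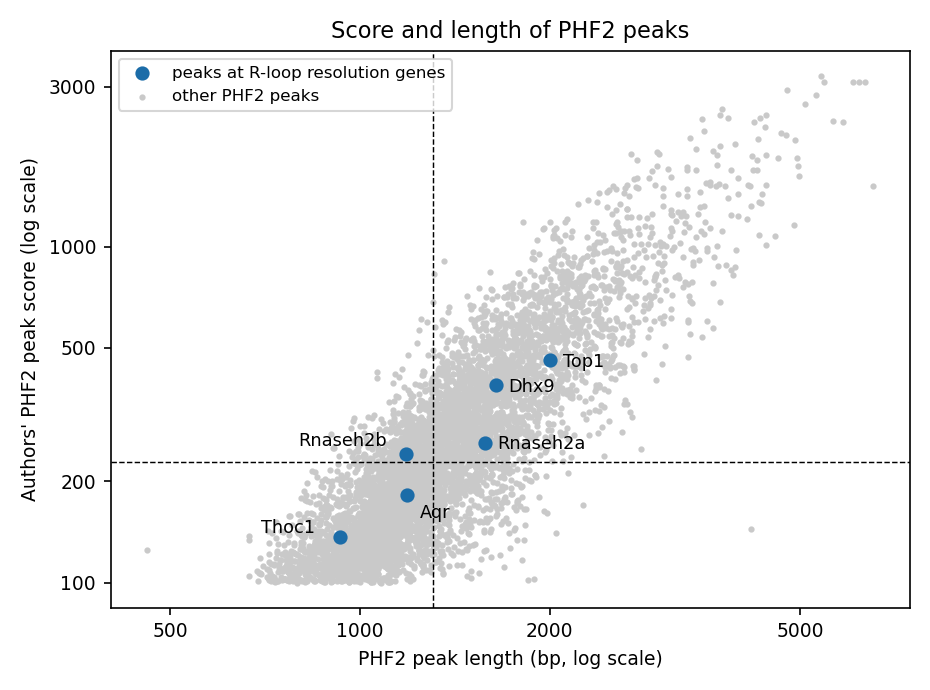
Authors' score against length of the 5992 PHF2 peaks (both axes log scale), with the peaks at R-loop resolution genes in blue and dashed lines at the medians of all peaks. Top1 (458.76, 2004 bp) and Dhx9 (386.63, 1645 bp) lie highest, and Thoc1 (136.58, 930 bp) lies near the lower end of the list.

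Start windows of these genes with a PHF2 peak were mostly richer in CpG than those without. Windows of 1 kb on either side of a coding start, joined within a gene where they met, gave 15 windows for the 9 genes, of which 6 (40%) held a peak, against 20.9% of all 30742 windows. All 6, and 95% of all coding windows with a peak, lay in the upper 4 of 10 equal classes of CpG observed/expected, the ratio of CpG dinucleotides present to the number that base composition predicts. In those 4 classes the genes had 10 windows, of which 6 (60%) held a peak, beside 49.7% of all 12296 windows there. The other 5 windows had no peak. The ratio was 0.804 at Top1, 0.728 at Dhx9, 0.621 at Thoc1, 0.569 at the inner start of Rnaseh2b, 0.532 at Aqr and 0.513 at the upstream window of Rnaseh2a. Their median was 0.595, against 0.431 for the 9 windows of these genes without a peak. Over all coding genes these medians were 0.683 with and 0.259 without a peak.

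The 4 windows of these classes without a peak were Thoc2 at its RefSeq start (0.695), Rnaseh1 (0.553), Rnaseh2c (0.536) and the outer start of Rnaseh2b (0.47). Of all windows in the classes of these starts, 57.2%, 42.3%, 25.6% and 25.6% held a PHF2 peak, in the same order. Aqr lay in the same class as Rnaseh2c and had a peak. This ratio over a whole window ranks starts differently from the CpG number of the 300 bases. Rnaseh2c, with only 9 there, had a higher ratio over its window than the downstream window of Rnaseh2a (0.431), whose curated start had 23. Averaged over the 15 windows, the share of all windows of the same class with a peak was 28.5%, between the 40% of these windows and the 20.9% of all. Of the 5 remaining windows, 3 hold only starts of transcripts that GENCODE marks as incomplete at their 5′ end, 1 at Thoc1 and 2 at Thoc2.

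**Figure D3:**
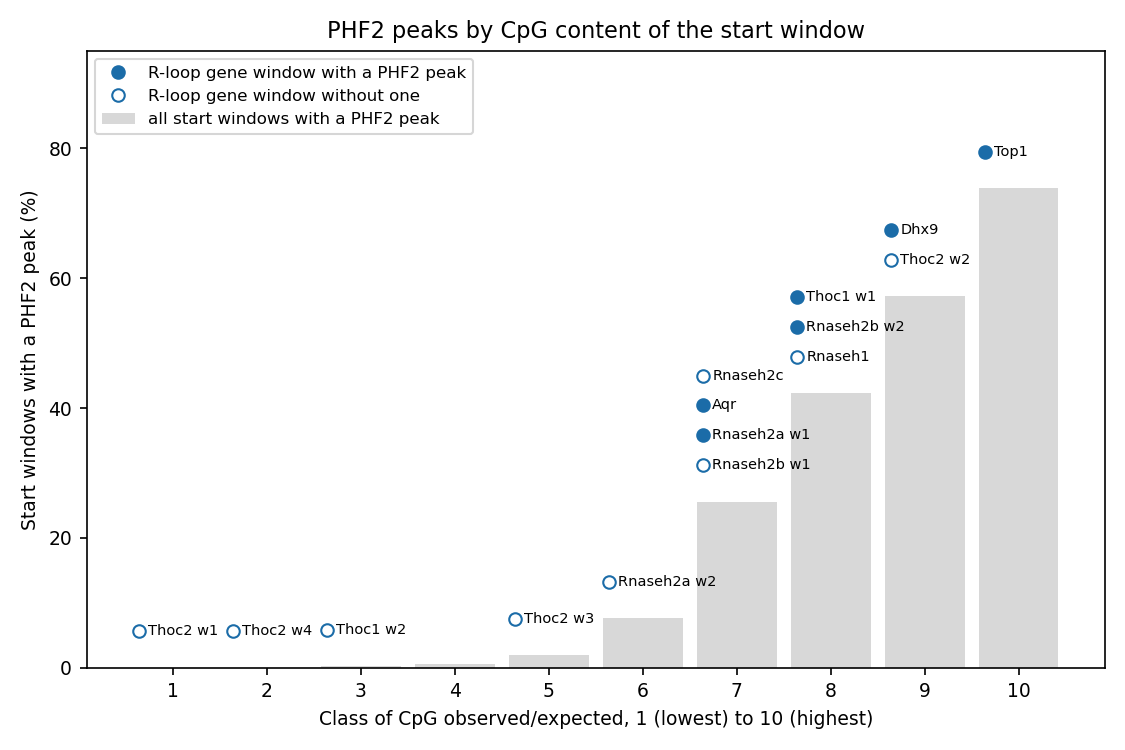
Share of all protein-coding start windows with a PHF2 peak in each of 10 equal classes of CpG observed/expected (grey bars, %), from 0% in class 1 to 73.8% in class 10. Circles stack the 15 windows of R-loop resolution genes above the bar of their class, filled with and open without a peak; their height carries no value, and w1 to w4 number the windows of a gene along transcription.

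Short motifs differed from promoter to promoter. The 300-base RefSeq promoters were searched for fixed letters on both strands. The GC box GGGCGG, bound by SP factors and found in 46.7% of 21045 coding promoters, occurred 3 times at Top1 and 2 times each at Dhx9, Rnaseh2a and Thoc2, but not at Aqr or Rnaseh2c. The ETS letters CCGGAAG, found in 11.7%, occurred 2 times at Aqr and 1 time at Dhx9, in the printed Dhx9 sequence right after the E2F letters TTTGGCGC with no overlap. Any of 3 E2F forms (TTTGGCGC, TTTCGCGC, TTTCCCGC) was found in 2.43% of promoters, and here at Dhx9 and at Thoc2, where it overlapped a GC box. The YY1 letters AAGATGGCG, in 1.84% of promoters, occurred at Thoc2 27 bp after the start. The CCAAT box, in 38.5%, occurred at Aqr and Rnaseh2a. The CRE core TGACG, in 23.8%, occurred at Top1 and Thoc2, while the full TGACGTCA, the NRF1 and ZBTB33 motifs and the TATA box TATAAA occurred at none of the 6. Rnaseh2c matched none of the motifs, and no motif was held by all 3 promoters under a peak other than GGGG on the coding strand, which 73.1% of promoters hold.

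GC skew, the excess of G over C on the coding strand as a share of both, was computed because a G-rich coding strand, and so a G-rich RNA, is known to favour R-loops. In the 500 bases after the most 5′ start of a window it was 0.162 at Dhx9 (83.7th percentile of all windows), 0.107 at the upstream window of Rnaseh2a and 0.0643 at Aqr. The inner start of Rnaseh2b had 0.0511, Thoc1 had -0.0759 and Top1 had -0.143, at the 6.81st percentile. The 6 windows with a peak thus lay on both sides of 0.0492, the median of all protein-coding start windows. The highest skew of all 15 windows, 0.192, belonged to the downstream window of Rnaseh2a, without a peak.

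Called H3K9me2 regions lay at varied distances from these starts, none within 5 kb. The regions are short, 73 to 367 bp, and no source used here names their caller, so the absence of one does not show that the mark is absent. From the most 5′ start of each window, the nearest region lay 7.78 kb away at the outer start of Rnaseh2b, 21.7 kb at Top1, 35.2 kb at the inner start of Rnaseh2b and 43.4 kb at Rnaseh2c. It lay 59.7 kb away at Aqr, 69.5 kb at Dhx9, 114.3 kb at Rnaseh1, and 155.1 kb and 158.0 kb at the upstream and downstream windows of Rnaseh2a. At Thoc1 and Thoc2 the distances ran from 263.4 kb to 323.6 kb. None of the 15 windows held a region, beside 1.65% of all windows. The median distance over the 15 was 155.1 kb, beside 36.8 kb over all windows, but windows of 1 gene share their surroundings and 6 of the 15 belong to Thoc1 and Thoc2. Counted once per gene, at its nearest window, the median was 69.5 kb for the 9 genes and 34.4 kb for all protein-coding genes. By that count 5 of the 9 lay nearer than the upper quartile of all genes, 78.6 kb, and Rnaseh1, Rnaseh2a, Thoc1 and Thoc2 lay beyond it.

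Of the 9 genes, 2 contained an H3K9me2 region in the gene body, beside 24.3% of all protein-coding genes. The Top1 region lay in an intron (chromosome 2, 160667619 to 160667691), and the Rnaseh2b region lay in an intron as well (chromosome 14, 62367231 to 62367303), each with the shortest length in the list, 73 bp. Within 100 kb of a start there were 3 regions at both windows of Rnaseh2b, 2 each at Aqr and Rnaseh2c, 1 each at Dhx9 and Top1, and 0 at Rnaseh1, Rnaseh2a, Thoc1 and Thoc2, beside a median of 2 over all windows.

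**Figure D4:**
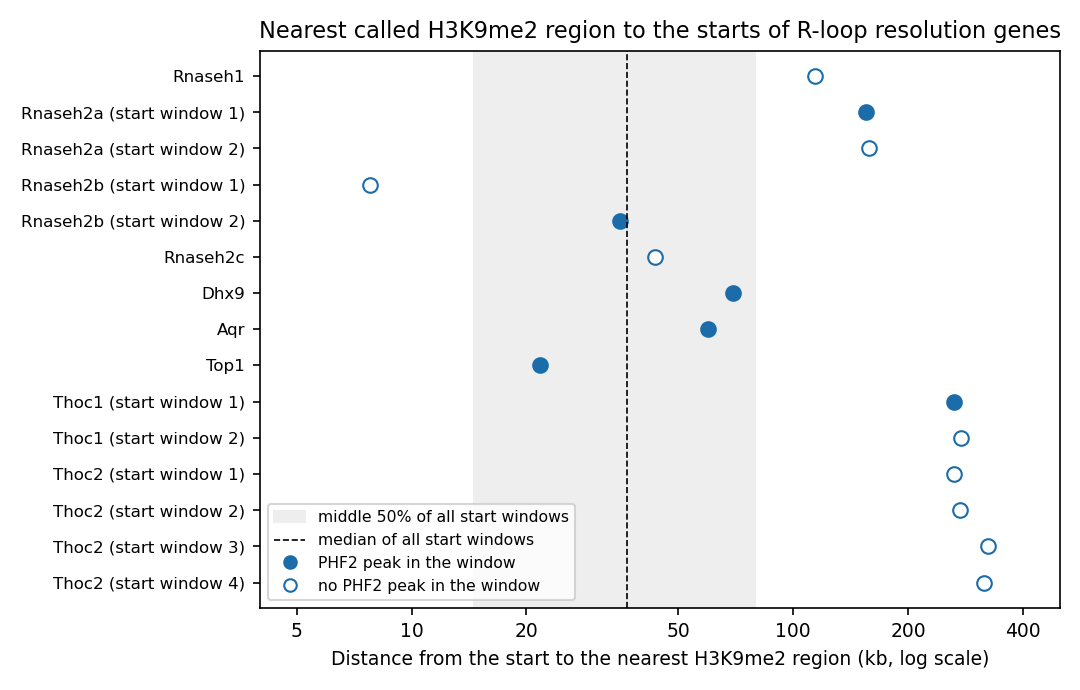
Distance in kb (log scale) from the most 5′ coding start of each of the 15 windows to the nearest called H3K9me2 region, with windows that hold a PHF2 peak filled. The band spans the middle 50% of all start windows (14.6 to 79.3 kb) and the dashed line is their median, 36.8 kb; the windows of Thoc1 and Thoc2 lie farthest, from 263.4 kb on.

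A wider set of genes related to these 9 had PHF2 peaks at a similar rate. Of 67 related genes in 8 lists, 44 (65.7%) had a peak, with a median score of 223.4. That share is close to the 66.7% of the 9 genes. The 9 genes were picked for their role, and the related lists by role, protein family, complex or disease. Both choices were made with earlier results of these data known. Over all protein-coding genes the share was 29.1%. Of the 96 start windows of the related genes, 45 (46.9%) held a peak, beside 20.9% of all windows. Averaged over those 96 windows, the share of all windows of the same CpG class with a peak was 35.2%, between these values. Whether CpG content accounts for the shares of these lists was not tested. In TREX, the complex that joins THO to messenger RNA export, 6 of 10 other genes had a peak, led by the helicase gene Ddx39b (415.29) and Poldip3 (334.46). Among THO subunits, Thoc7 (314.86), Thoc3 (233.85) and Thoc5 (104.1) had one. Thoc6, Chtop, Sarnp and Zc3h11a had none. Thoc1 thus scored above Thoc5 and below Thoc3 and Thoc7.

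Of 12 other helicases that act on R-loops, 9 had a PHF2 peak, with Ddx5 (809.58) and Ddx21 (355.11) highest. Blm, Ddx41 and Fancm had none. Only Ddx5 scored above Dhx9 and Top1. The DHX family of Dhx9 had 8 of 15 other members with a peak, all below Dhx9, and the highest were Dhx29 (301.97) and Dhx15 (244.35). Dhx32, Dhx34, Dhx35 and Dhx38 were among the 7 without one. Of the proteins known to sit with aquarius in the intron-binding complex, Isy1 (285.41), Zfp830 (182.1) and Ppie (110.77) had a peak and Xab2 had none.

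Among other topoisomerase genes and Tdrd3, which encodes the partner of topoisomerase III beta, 4 of 6 had a PHF2 peak. Top2b (572.64) and Tdrd3 (548.88) exceeded Top1, Top2a (310.34) and Top3b (249.99) did not, and Top1mt, which encodes the mitochondrial enzyme, and Top3a had none. All 5 genes listed as RNA processing factors that limit R-loops had a peak, beside 29.1% of all protein-coding genes. Of these 5, the splicing factor genes Srsf2 (1068.75) and Srsf1 (661.29) exceeded each of the 9 genes. Repair genes linked to R-loops had peaks at 8 of 11, with Ercc5 (283.27) and Rpa3 (271.6) highest, and Brca1, Ercc4 and Fanca had none. Mutations in the RNase H2 genes cause Aicardi-Goutières syndrome, an inflammatory disease, and of 4 other genes of that syndrome Adar (183.14) had a peak while Trex1, Samhd1 and Ifih1 had none. Ddx1, a helicase gene with a PHF2 peak of 265.15, was the only one of the 67 with an H3K9me2 region within 1 kb of a start. The share of all protein-coding genes with such a region was 2.30%.

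**Figure D5:**
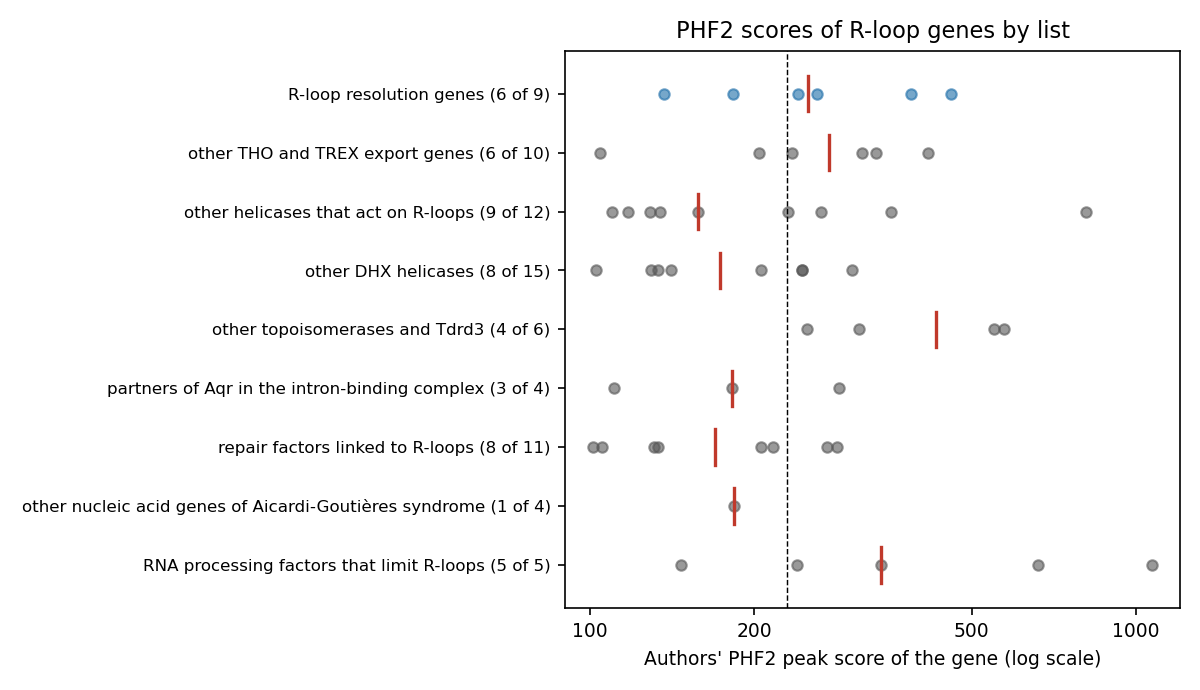
Authors' PHF2 score (log scale) of each gene with a peak, for the R-loop resolution genes in blue and the 8 related lists in grey, with the number of genes with a peak out of all in brackets. Red bars are list medians and the dashed line is the median of all peaks, 229.1; the 9 genes have a median of 250.6 over the 6 with a peak, within the range of the list medians from 157.7 to 429.6.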

How the data were processed

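The deposited files hold called peaks of 1 PHF2 and 1 H3K9me2 ChIP-seq sample. The submitters' processing notes name Bowtie2 and mm10. Per the file headers, MACS in Galaxy made the PHF2 list; no source used here gives its version, control or settings. The authors deposited a score per PHF2 peak, and the deposited score column of the H3K9me2 list holds 0 throughout. A threshold on p stands only in the name of the H3K9me2 list, and 60 of its regions, on scaffolds, were left out.

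Peaks were assigned with Python 3.11.15 to protein-coding genes of GENCODE M21 (GRCm38, the mm10 assembly) when they overlapped by 1 bp or more a window of 1 kb on either side of the start of a coding transcript. Windows of a gene were joined where they met. Coordinates are 1-based. CpG content and GC skew came from the genome sequence. The functions were tested on simulated intervals. The 9 genes, the 8 related lists, the motifs and the markers were chosen with earlier results of these data known. By rule, the text names all 9 genes, genes sharing their peaks, and of each related list the 2 highest scores, up to 4 genes without a peak and each gene with an H3K9me2 region; Thoc3, Thoc5, Thoc7, Zfp830, Ppie, Top2a and Top3b were named beyond it after their values were seen. The nearest peaks to genes without one were added likewise. An item is not reported here. The alternatives were other windows, starts, overlaps and score or length thresholds.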

Additional observations from a re-analysis of the deposited data

How the results depend on the processing

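The count of 6 genes with a PHF2 peak, and which genes these were, held with windows of 500 bp, 2 kb and 5 kb, with the starts of all transcripts and with the peak centre in the window. It was 5 with the most 5′ start (without Rnaseh2b) and 5 with curated RefSeq starts (without Rnaseh2a). It was 4 among the higher-scoring 50% of peaks (without Aqr and Thoc1) and 0 among the highest-scoring 10%. Among the same 2 sets of peaks the related genes fell to 22 and 3, and all protein-coding genes to 14.8% and 2.84%, by construction, since fewer peaks were counted. No alternative gave any of the 9 genes an H3K9me2 region, windows of 5 kb included. Related genes with a region numbered 0 with windows of 500 bp, 3 with 2 kb, 10 with 5 kb, and 2 with the starts of all transcripts. For all protein-coding genes the share was 1.05%, 4.98% and 12.2% in those windows, 1.44% with the most 5′ start, 3.50% with all transcripts, 0.932% with regions longer than the shortest and 1.5% with RefSeq starts. Scores did not move in any of the alternatives that kept a peak, by construction, since each peak carries 1 deposited score. Ranks by length stayed within 1.5 times those by score. The RefSeq starts were chosen after seeing the data. No paired analysis was possible because each group had 1 sample. Called peaks carry no depth, so weak binding below the callers' thresholds could not be assessed.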
